A study of Mus musculus with 6 samples.

Results

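The Toll-like receptors (TLRs) and the proteins that hand lipopolysaccharide (LPS) to them were described in peritoneal neutrophils of cGAS-/- mice, untreated or after LPS. The genes were chosen by symbol, and all 10 of them, *Tlr1*, *Tlr2*, *Tlr3*, *Tlr4*, *Tlr5*, *Tlr6*, *Tlr9*, *Tlr12*, *Ly96* and *Lbp*, had a row among the 38739 genes of the RNA sequencing table. *Tlr7*, *Tlr8*, *Tlr11*, *Tlr13* and *Cd14* were not analysed here. The 6 samples were 3 of neutrophils kept in medium (untreated) and 3 of neutrophils treated with LPS of *E. coli* 026:B6, each for 2 h. The labels give 500 ng/mL of LPS, whereas the methods of the study give another dose for the sequenced cells, so the dose is uncertain. All samples, the untreated ones included, carried the cGAS knockout on a background spelled C57B/L6, and no wild-type sample entered the table, so nothing here shows what the deletion does. The methods describe cells washed out of the peritoneal cavity after an injection of thioglycolate, with no sorting step. The mice were young adult males according to the same methods, and whether the triplicates came from separate animals is not given in the sources used here. The p-values below therefore measure the spread between these samples, which may be technical.

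TLRs are membrane receptors that bind molecules of microbes through an outer domain of leucine-rich repeats and pass the signal on through an inner TIR domain. TLR4 binds LPS only together with its partner MD-2, the product of *Ly96*, and LPS is brought to this pair by the LPS-binding protein (*Lbp*) and CD14. TLR2 works in pairs with TLR1 or TLR6 and binds bacterial lipoproteins, TLR5 binds flagellin, TLR12 binds profilin of protozoa, and TLR3 and TLR9 sit in endosomes, where they bind double-stranded RNA and unmethylated CpG DNA. Most TLRs signal through the adaptor MyD88 to NF-κB, TLR3 through TRIF, and TLR4 through both. Human neutrophils are known to carry most TLRs, with TLR3 as the usual exception.

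After LPS, the 3 receptors of bacterial lipoproteins, *Tlr1*, *Tlr2* and *Tlr6*, were the members that passed the limits of a change, all upward. Mean values were 8.24, 6.75 and 4.16 times those of untreated cells, with adjusted p of 0.077, 0.053 and 0.043 (limma). Without replicate 2 of both groups only *Tlr6* passed, and after scaling to the summed value of protein-coding genes *Tlr6* did not. The LPS receptor *Tlr4*, its partner *Ly96* and the DNA receptor *Tlr9* were measured at clear levels in both groups without passing the limits of a change. *Tlr5* was low, and *Tlr3*, *Tlr12* and *Lbp* were at or near the limit of detection.

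The promoters of the members are shown before the values, since TLR signalling ends at NF-κB and other factors that bind such sequences, and the response of each gene can then be read beside the letters in front of it. The RefSeq promoter table (GRCm38.p6) held 9 start sites of 7 members, and *Tlr4*, *Ly96* and *Lbp* were not among them. Each sequence is the 250 bases before a start site, 5′ to 3′ on the strand of the gene. Capitals mark matches to the NF-κB consensus, to the PU.1 core GAGGAA or to the interferon-response element (by its consensus name), searched on both strands. For *Tlr1* and *Tlr6*, which have 2 start sites each, the site that holds a match is printed.
*Tlr2* (chr3:83841609-83841858, minus strand): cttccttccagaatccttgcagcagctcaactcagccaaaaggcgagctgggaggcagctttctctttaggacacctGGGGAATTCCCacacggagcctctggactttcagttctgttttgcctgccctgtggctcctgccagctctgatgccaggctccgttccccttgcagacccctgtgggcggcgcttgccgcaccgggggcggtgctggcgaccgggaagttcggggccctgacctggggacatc
*Tlr1*, start site 1 (chr5:64933559-64933808, minus strand): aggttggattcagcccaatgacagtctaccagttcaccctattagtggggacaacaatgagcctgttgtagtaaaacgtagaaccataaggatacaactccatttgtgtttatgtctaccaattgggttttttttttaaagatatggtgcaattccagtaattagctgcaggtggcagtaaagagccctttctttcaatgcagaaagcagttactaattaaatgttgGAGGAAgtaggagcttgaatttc
*Tlr6*, start site 2 (chr5:64959167-64959416, minus strand): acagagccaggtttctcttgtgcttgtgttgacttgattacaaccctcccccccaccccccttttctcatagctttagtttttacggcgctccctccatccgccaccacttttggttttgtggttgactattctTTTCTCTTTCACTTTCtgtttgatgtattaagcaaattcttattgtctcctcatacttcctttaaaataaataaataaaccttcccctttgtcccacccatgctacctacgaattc
*Tlr9* (chr9:106222348-106222597, plus strand): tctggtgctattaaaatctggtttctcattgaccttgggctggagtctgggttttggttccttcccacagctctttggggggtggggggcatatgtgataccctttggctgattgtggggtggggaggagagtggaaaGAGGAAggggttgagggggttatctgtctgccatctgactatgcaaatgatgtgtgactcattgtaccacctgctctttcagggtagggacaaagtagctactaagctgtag

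In the *Tlr2* promoter the NF-κB consensus matched at 173 and 172 bases before the start site. These matches overlap in 1 palindromic run, which also matches on the opposite strand. Over all 32851 promoters of the table, 3.9% held an NF-κB match. Among the other members with a promoter in the table only *Tlr3* had one, 211 bases before its start site, in a sequence not printed here. *Tlr3* was near the limit of detection in both groups. *Tlr1* and *Tlr9*, of which the former was called and the latter was not, each had a PU.1 core (PU.1 is a transcription factor of myeloid and B cells), at 23 and 112 bases before the start site, and 23.3% of all promoters had one. The second start site of *Tlr6* had 2 overlapping interferon-response matches on the opposite strand, at 116 and 110 bases before the start, against 2.98% of promoters with at least 1. The AP-1 pattern TGANTCA matched in *Tlr9* alone among the members searched, 58 bases before the start site, and in 6.75% of all promoters. The C/EBP pattern TTNCNNAA was found in *Tlr2*, *Tlr3* and *Tlr6* and in 36.8% of promoters, and TATAAA was found at the first start site of *Tlr6* and in 12.4%. A match describes letters alone, and binding was not measured.

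The promoters also differed in composition. That of *Tlr2* had 62.8% G and C and 11 CG pairs, above the medians of all promoters of 52.4% and 6. That of *Tlr9* had 50.4% G and C and 0 CG pairs. The printed site of *Tlr1* had 39.2% and 1, and its other start site had 49.2% and 8.

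The deposited values were read, from their digits and steps, as TPM (a share of transcripts corrected for their length) that the authors averaged per gene and rescaled with 1 factor per sample. They are called scaled TPM below. The check of digits for averaging did not cover the rows of the members. On this reading they are per transcript length, with the limit that a gene with many annotated transcripts is lowered by the averaging, so that levels of different genes are only roughly comparable. Read totals per sample were not given, but the values of genes with 1 transcript fall on multiples of 1 step, the worth of 1 sequenced fragment. From this step, 1 unit of scaled TPM stood on 3.76, 1.84 and 4.55 times as many fragments in the 3 LPS libraries as in the median untreated library, and on 0.97 to 1.1 times in the untreated ones. Low values of the untreated samples are therefore less precise. These relative depths were worked out after the data had been seen, and fragment numbers given for members assume 1 transcript and cover counting error only.

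The targeted gene *Cgas* was at 0.203, 0.307 and 0.18 scaled TPM in untreated and at 0.184, 0.0713 and 0.0286 in LPS samples, low in all 6, and a wild-type level to set it against was not in the table. Of 15 neutrophil markers in the table none was at 0 everywhere, and their summed level ran from 9952 to 28717 scaled TPM in untreated and from 17283 to 57261 in LPS samples, led by *S100a9*, *S100a8* and *Lcn2*. Markers of other cells were present too. The 17 macrophage or monocyte markers summed to 180.3 to 217.3 in untreated and 288.7 to 428.2 in LPS samples, of which *Cd68* made up most. The 8 B cell markers summed to 144.4 to 585.9 in untreated and 70.99 to 255.1 in LPS samples, led by *Cd79a*. Ranges of 16.1 to 23.04 and 9.174 to 22.2 were found for the 10 T or NK cell markers, of 4.368 to 32.41 and 35.98 to 130.0 for the 8 dendritic cell markers, of 7.126 to 42.45 and 5.945 to 52.39 for the 8 mast cell, eosinophil or basophil markers (with *Epx* at 0), and of 0.1175 to 1.263 and 0.3461 to 1.294 for the 6 mesothelial markers (with *Muc16* at 0). In bulk samples, more cells of a type and more RNA per cell cannot be told apart.

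The libraries numbered 2 stood apart in both groups by their marker sums, though not by every marker. Their neutrophil marker sums were 28717 (untreated) and 57261 (LPS), against 9952 and 10416 in the other untreated and 19003 and 17283 in the other LPS libraries. Most of these sums was *S100a8* (8405 and 19851) and *S100a9* (16151 and 28393). Gene by gene, 8 of 15 neutrophil markers were highest in both libraries numbered 2 and 0 lowest in both. Their B cell marker sums, 144.4 and 70.99, were the lowest of their groups, and the other libraries had 421.1 to 585.9 and 242.3 to 255.1. Of the 8 B cell markers, 4 were lowest in both libraries and 0 highest in both. Of the genes with a mean of at least 1, 20.5% were lowest in both. *Tlr4*, *Tlr9* and *Ly96* were highest in the library numbered 2 of both groups, which makes 3 of the 7 members with a mean of at least 1, against 17.4% of the 9403 genes at that level. The part of cell composition in these members' values was not tested, and results are given below with and without both libraries.

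**Figure D1:**
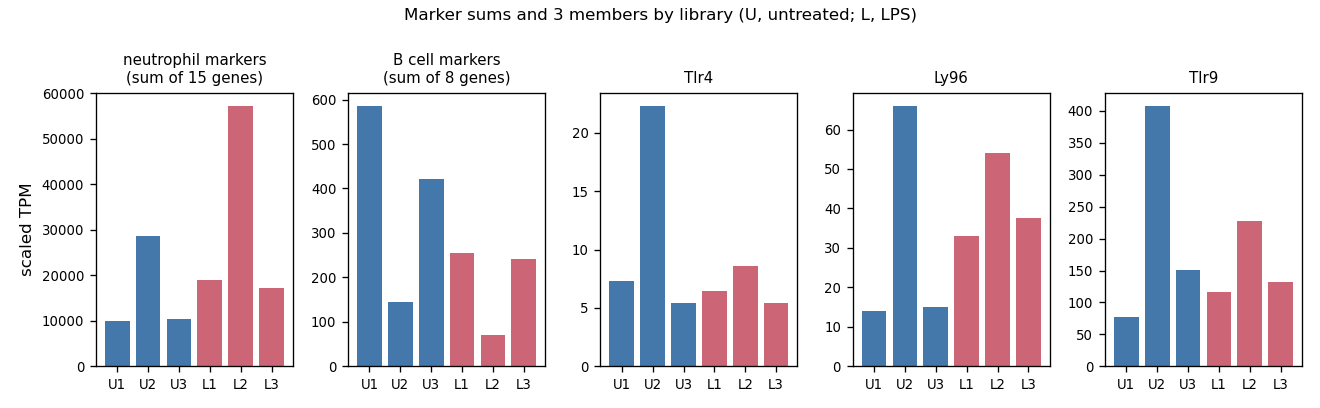
Summed scaled TPM of neutrophil and B cell markers and scaled TPM of *Tlr4*, *Ly96* and *Tlr9* in each library, with 1 bar per library (U1 to U3 untreated, blue; L1 to L3 LPS, red) and each panel on its own axis from 0. U2 and L2 have the highest neutrophil sum, the lowest B cell sum and the highest value of all 3 genes within their group.

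To ask which members differed between LPS and untreated cells, limma was fitted to log2(scaled TPM + 1) of all 23049 genes above 0 in at least 1 sample, and all 10 members passed this filter. A gene was called at the limits of the study (unadjusted p under 0.01, log2 fold change beyond 2 in size), and Benjamini-Hochberg adjusted p-values over all genes are given beside. Of the 10 members, 3 were called higher, against a background of 1.69% of all genes tested, and 0 were called lower, against 1.31%. At an unadjusted p under 0.05 alone, 3 members were higher and 0 lower, where 10.3% and 6.66% of all genes were. Among the 9403 genes with a mean of at least 1, the background was 4.14% (higher) and 3.2% (lower). With an adjusted p under 0.05 as the rule, 1 member (*Tlr6*) was higher and 0 were lower, where 0.894% and 0.946% of all genes were. Without both libraries numbered 2, 1 member (*Tlr6*) was called at the limits of the study. The LPS and untreated samples did not overlap for 3 members, all higher after LPS, where 13.1% of genes were apart in that direction and 9.75% in the other. The median log2 fold change was 0.17 over the 10 members and 0.01 over all genes.

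**Figure D2:**
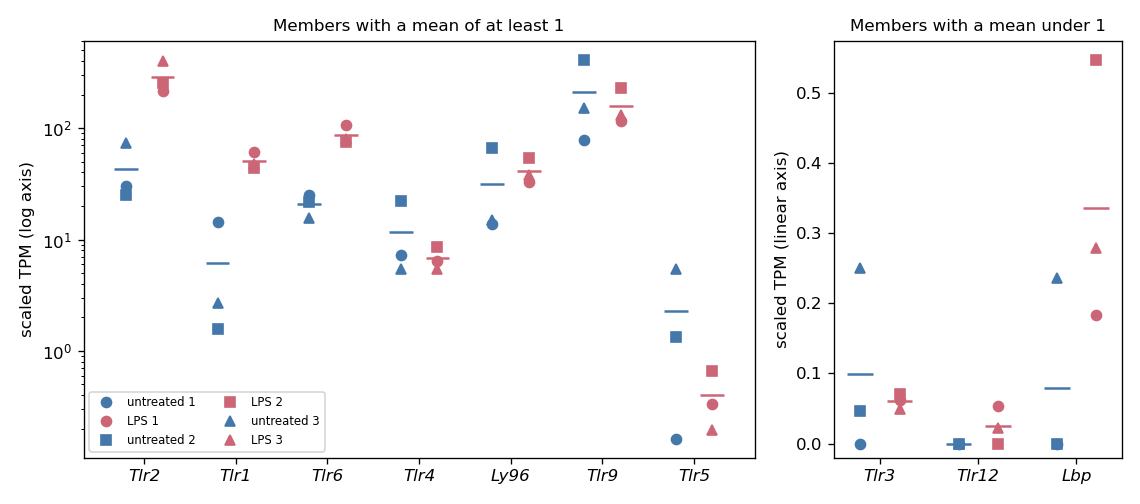
Scaled TPM of the 10 members in each sample (circles, squares and triangles for replicates 1, 2 and 3; blue untreated, red LPS; horizontal lines are group means, n = 3 each), on a log axis for the 7 members with a mean of at least 1 and on a linear axis for the other 3. For *Tlr2*, *Tlr1* and *Tlr6* every LPS sample lies above every untreated one, and for the other members the groups overlap.

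*Tlr2* encodes the receptor that both lipoprotein pairs share, and it lies on chromosome 3 from 83743576 to 83749074, minus strand (GRCm39, as for all positions below). It was at 30.5, 24.9 and 73.4 scaled TPM in untreated and at 215.0, 256.0 and 398.0 in LPS samples. The lowest LPS sample was thus well above the highest untreated one, which was replicate 3. The mean went from 42.9 ± 26.5 to 289.6 ± 95.9 (SD, n = 3 each), a log2 fold change of 2.84 (SE 0.5, 95% interval 1.63 to 4.05, limma, adjusted p = 0.053). *Tlr2* was thereby called at the limits of the study and stayed just above an adjusted p of 0.05. Without both libraries numbered 2 the log2 fold change was 2.6 and no longer passed the limits. With all libraries kept, scaling to the summed value of protein-coding genes lowered it to 2.35 and centring on their median to 2.52, both still called. Expressed as fragments of 1 transcript, its values stood on 231 to 696 fragments in untreated and 4445 to 17099 in LPS libraries.

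*Tlr1* (chromosome 5, 65082022 to 65090941, minus strand), the partner of TLR2 for triacylated lipoproteins, was at 14.3, 1.57 and 2.71 scaled TPM in untreated and at 60.6, 44.2 and 48.1 in LPS samples. The LPS samples lay close together, whereas the first untreated sample was several times higher than the other untreated ones. Means were 6.19 ± 7.03 and 51.0 ± 8.59 (SD, n = 3 each). The log2 fold change of 3.29 was the largest of the members (SE 0.69, 95% interval 1.6 to 4.98, limma, adjusted p = 0.077), and it ranged from 2.48 to 4.06 over the alternative settings. Leaving out any 1 LPS sample or the third untreated one took *Tlr1* outside the limits, at log2 fold changes of 3.04 to 3.39, and so did leaving out both libraries numbered 2, at 2.87. The second untreated value rests on 13.4 fragments if 1 transcript was counted.

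*Tlr6* (chromosome 5, 65108704 to 65203497, minus strand), the partner of TLR2 for diacylated lipoproteins, had values of 25.2, 21.9 and 15.7 scaled TPM in untreated and 106.0, 75.1 and 79.2 in LPS samples. Both groups were tight, and the means were 20.9 ± 4.82 and 86.9 ± 17.0 (SD, n = 3 each). The log2 fold change was 2.01 (SE 0.32, 95% interval 1.24 to 2.78, limma, adjusted p = 0.043), which is just inside the fold limit. It was 2.15 without both libraries numbered 2 and remained called there. Scaling to the summed value of protein-coding genes gave 1.54, centring on their median 1.69, a pseudocount of 5 gave 1.83, and leaving out the first LPS or the third untreated sample gave 1.86 and 1.83, all outside the fold limit.

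*Tlr1* and *Tlr6* are neighbours on chromosome 5 and share sequence. A stretch of 1328 bases is 88.8% identical between their transcripts, and 607 words of 31 bases occur in both, 17.8% of those of *Tlr1* and 12.5% of those of *Tlr6*. How the authors' counting split fragments of this stretch is not known, so the division of the signal between these genes is uncertain. *Fam114a1* overlaps *Tlr6* on the other strand. The libraries were strand-specific, but whether the counting used the strand is not given in the sources used here. *Fam114a1* was at 13.5 ± 6.88 scaled TPM in untreated and 28.8 ± 1.42 in LPS samples (n = 3 each), a log2 fold change of 1.14 (limma, adjusted p = 0.227). Being a neighbour of a called member, it was named after its values had been seen.

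*Tlr4* (chromosome 4, 66745783 to 66849936, plus strand), the receptor of LPS itself, was at 7.3, 22.3 and 5.42 scaled TPM in untreated and at 6.41, 8.57 and 5.44 in LPS samples. The groups overlapped, and the second untreated sample alone was high. Means were 11.7 ± 9.26 and 6.81 ± 1.6 (SD, n = 3 each), and the log2 fold change of -0.48 (SE 0.54, 95% interval -1.81 to 0.85, limma, adjusted p = 0.639) was within the spread. The interval includes falls and rises. Without the second untreated library the value was 0.08, and without both libraries numbered 2 it was -0.08. On the deposited scale the direction of *Tlr4* thus rested on 1 library. With all libraries kept, scaling to the summed value of protein-coding genes gave -0.91 and centring on their median -0.8. Both were within the fold limit, and neither was fitted without the second untreated library.

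*Ly96* (chromosome 1, 16758275 to 16779961, plus strand), which encodes the MD-2 partner of TLR4, was at 13.9, 66.0 and 15.0 scaled TPM in untreated and at 33.0, 54.0 and 37.7 in LPS samples. Again the second untreated sample was the highest of its group, above all LPS samples, and the other untreated samples were below all of them. The means were 31.6 ± 29.8 and 41.6 ± 11.1 (SD, n = 3 each), with a log2 fold change of 0.73 (SE 0.65, 95% interval -0.85 to 2.3, limma, adjusted p = 0.559). It was 1.43 without the second untreated library and 1.23 without both libraries numbered 2, under the fold limit in either case.

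Set against *Tlr4* within each sample, *Ly96* differed between the groups without overlap. Its ratio to *Tlr4* was 1.91, 2.96 and 2.77 in untreated and 5.15, 6.31 and 6.93 in LPS samples. On the log2 scale the difference between the genes was 1.23 ± 0.35 in untreated and 2.44 ± 0.21 in LPS samples (SD, n = 3 each), 1.21 higher after LPS. An exact permutation test over the samples gave p = 0.1 (two-sided), the smallest that 3 against 3 samples allow, and 0.375 after adjustment over the 5 pairs tested. The difference was 1.31 without both libraries numbered 2, and 0.98 to 1.35 over the alternative settings. A ratio within a sample shows unequal values, not which of the genes moved.

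*Lbp* (chromosome 2, 158148409 to 158174800, plus strand), a plasma protein made mainly by the liver, was listed at 0, 0 and 0.236 scaled TPM in untreated and at 0.183, 0.547 and 0.279 in LPS samples. If 1 transcript was counted, these stand on 0, 0 and 1.82 fragments in untreated and on 5.26, 7.65 and 9.62 in LPS libraries. A floor of 3 fragments per library would correspond to 0.348 to 0.403 scaled TPM in untreated libraries, above 2 of the 3 LPS values and above the third untreated value. The log2(value + 1) difference was 0.31 (SE 0.15, limma, adjusted p = 0.348). Against *Tlr4* within a sample the difference was 0.79 higher after LPS (exact permutation p = 0.3, adjusted p = 0.375).

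The endosomal DNA receptor *Tlr9* (chromosome 9, 106099797 to 106104082, plus strand) is the member with 1 annotated transcript, so that averaging did not lower it as it may have lowered the others. Its values were 77.6, 408.0 and 151.0 scaled TPM in untreated and 117.0, 228.0 and 132.0 in LPS samples. All LPS samples lay inside the range of the untreated ones. The means of 212.0 ± 174.0 and 159.0 ± 60.7 (SD, n = 3 each) gave a log2 fold change of -0.15 (SE 0.66, 95% interval -1.75 to 1.45, limma, adjusted p = 0.915). The sign turned with the setting, to 0.49 without the second untreated library, to 0.19 without both libraries numbered 2, to 0.04 without the first LPS library and to 0.09 with quantile normalization. *Tlr9* is known to be expressed in B cells as well, and the B cell marker sum was lowest in the libraries where *Tlr9* was highest. The part of B cells or of other cells in the *Tlr9* values was not tested.

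*Tlr3* (chromosome 8, 45848702 to 45864117, minus strand), the receptor of double-stranded RNA, was at 0, 0.0458 and 0.25 scaled TPM in untreated and at 0.0618, 0.0709 and 0.0488 in LPS samples. No value stood on more than 3.44 fragments if 1 transcript was counted. *Tlr12* (chromosome 4, 128509236 to 128512412, minus strand) was at 0 in each untreated sample, and its LPS values of 0.053, 0 and 0.0221 correspond to 2 fragments, 0 and 1. Both groups were below the floor of 3 fragments for *Tlr12*, which lies at 0.267 to 0.305 scaled TPM in untreated and 0.066 to 0.163 in LPS libraries. No difference was detectable at this depth for either gene.

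*Tlr5* (chromosome 1, 182782311 to 182805500, plus strand), the flagellin receptor, was at 0.163, 1.33 and 5.39 scaled TPM in untreated and at 0.336, 0.664 and 0.196 in LPS samples. The LPS samples were all low, while the untreated samples spread widely on both sides of them, the first of them at 2.49 fragments if 1 transcript was counted. Means were 2.3 ± 2.74 and 0.399 ± 0.24 (SD, n = 3 each), with a log2 fold change of -0.9 (SE 0.65, 95% interval -2.48 to 0.68, limma, adjusted p = 0.551). Without the third untreated sample it was -0.25, so most of this difference came from 1 library.

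**Figure D3:**
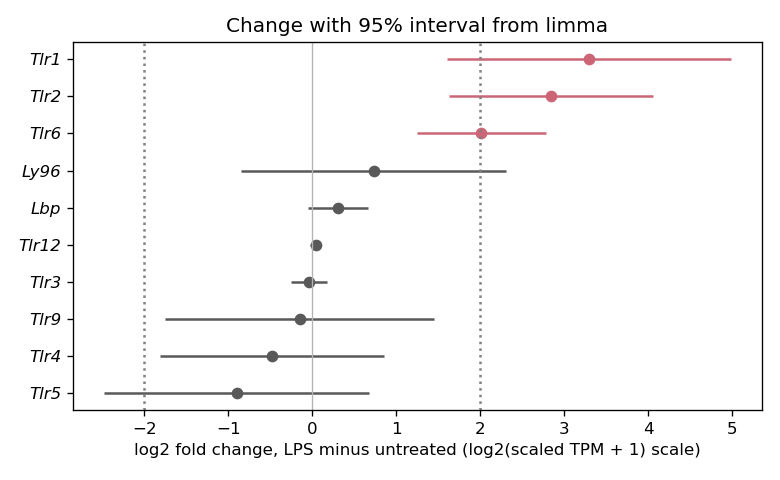
Log2 fold change of each member (LPS minus untreated, on the log2(scaled TPM + 1) scale, 3 samples per group) with its 95% interval from limma; red points passed the limits of the study, and dotted lines mark the fold limit of 2. The intervals of *Tlr1*, *Tlr2* and *Tlr6* lie above 0, and those of the other 7 members include 0.

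The order of the listed levels is given as deposited. It may depend on averaging, since GENCODE M39 lists 1 transcript for *Tlr9*, 2 for *Tlr12* and 5 to 20 for the other members. In untreated cells the mean scaled TPM ran from *Tlr9* (212.0) over *Tlr2* (42.9), *Ly96* (31.6), *Tlr6* (20.9), *Tlr4* (11.7) and *Tlr1* (6.19) to *Tlr5* (2.3). Of the neighbours in this order, the samples of *Tlr9* and *Tlr2* did not overlap, and all others did. After LPS the order was *Tlr2* (289.6), *Tlr9* (159.0), *Tlr6* (86.9), *Tlr1* (51.0), *Ly96* (41.6), *Tlr4* (6.81) and *Tlr5* (0.399). Here *Tlr2* overlapped with *Tlr9* and *Tlr1* with *Ly96*, and the other neighbours were apart. *Tlr3*, *Tlr12* and *Lbp* came after *Tlr5* in both groups, and the LPS samples of *Lbp* overlapped with those of *Tlr5*.

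Within each sample, *Tlr2* was at 0.392, 0.0609 and 0.486 times *Tlr9* in untreated and at 1.85, 1.12 and 3.02 times in LPS samples. Against *Tlr4*, *Tlr2* stood at 4.17, 1.11 and 13.5 times in untreated and at 33.6, 29.8 and 73.1 times in LPS samples. The ratios of both pairs were higher in every LPS sample than in any untreated one. Whether *Tlr2* lay above or below *Tlr9* within a sample cannot be read from these ratios. The 6 annotated transcripts of *Tlr2* may have been averaged, and *Tlr9* has 1. Both of these pairs were chosen after the values had been seen and carry no test.

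The partners of *Tlr2* kept no fixed proportion to it. *Tlr1* was at 0.469, 0.0632 and 0.0369 times *Tlr2* in untreated and at 0.282, 0.173 and 0.121 times in LPS samples, and the groups overlapped (difference of log2 values 0.45, exact permutation p = 0.7, adjusted p = 0.7). *Tlr6* was at 0.826, 0.881 and 0.214 times *Tlr2* in untreated and at 0.494, 0.294 and 0.199 times in LPS samples, again with overlap (difference -0.83, exact permutation p = 0.3, adjusted p = 0.375). Between the partners, *Tlr1* was at 0.567, 0.0718 and 0.173 times *Tlr6* in untreated samples and at 0.57, 0.588 and 0.607 times in LPS samples. The LPS samples thus agreed closely, with an SD of the log2 difference of 0.05 against 1.2 in untreated samples, but the first untreated sample had almost the same ratio and the difference of 1.28 gave an exact permutation p of 0.2 (adjusted p = 0.375). The shared stretch of sequence bears on this ratio in every sample.

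**Figure D4:**
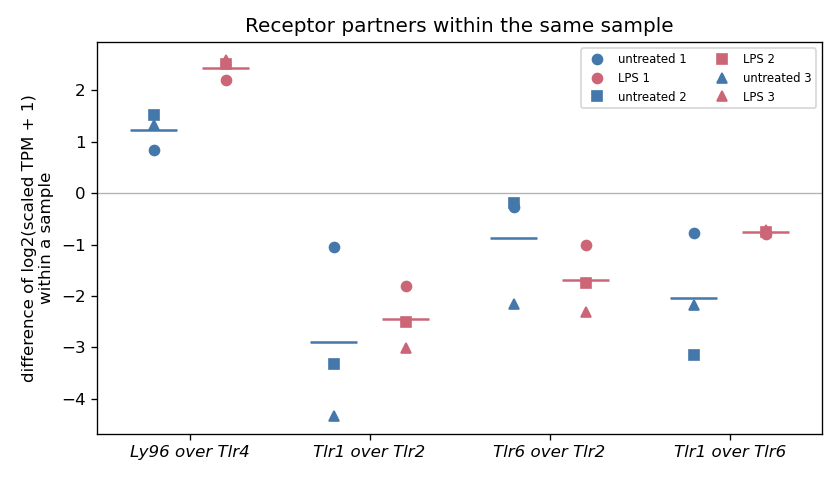
Difference of log2(scaled TPM + 1) between the genes of a pair within each sample (circles, squares and triangles for replicates 1, 2 and 3; blue untreated, red LPS; horizontal lines are group means, n = 3 each). The groups are apart for *Ly96* over *Tlr4* and overlap for the other pairs, and the LPS samples of *Tlr1* over *Tlr6* lie almost on 1 point.

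Genes with a pattern like that of *Tlr2*, *Tlr4* and *Ly96* were sought among 6003 protein-coding genes with a mean of at least 1, by Pearson r of log2(scaled TPM + 1) over the 6 samples. For *Tlr2* these were *St6galnac4* (r = 0.997), a sialyltransferase, *Gca* (r = 0.99), the granule protein grancalcin, and *Adgb* (r = 0.99). *Gca* was at 18.1 ± 9.62 scaled TPM in untreated and 93.6 ± 10.0 in LPS samples (n = 3 each), and like *Tlr2* it was highest in replicate 3 of each group. For *Tlr4* they were *Casp9* (r = 0.985), an initiator caspase, *Sh3bp5l* (r = 0.985) and *Alas1* (r = 0.984), the first enzyme of haem synthesis. For *Ly96* they were *Dync1i2* (r = 0.995), a dynein chain, *Ccndbp1* (r = 0.993) and *BC005537* (r = 0.992). The second untreated sample was the highest of the 6 for *Casp9*, *Sh3bp5l*, *Alas1*, *Dync1i2*, *Ccndbp1* and *BC005537*, as it was for *Tlr4* and *Ly96*. These r values describe 6 points that share libraries and treatment, the best of many genes, and no test was made.

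The other genes of the pathway were followed from the receptors downwards. Of the 10 co-receptors and of the 10 chaperones, trafficking and processing factors in the table, 0 were called in either direction by limma, with median log2 fold changes of 0.03 and -0.07. At an unadjusted p under 0.05, 0 co-receptors were higher and 1 was lower, and 1 of the trafficking genes was higher and 3 were lower, beside 10.3% and 6.66% of all genes. *Hmgb1*, a nuclear protein that acts as a TLR ligand and carrier once released, was at 33.7, 43.8 and 42.8 scaled TPM in untreated and 15.6, 15.4 and 14.4 in LPS samples. Its log2 fold change of -1.34 (SE 0.27, limma, adjusted p = 0.069) was under the fold limit, although the groups did not overlap. *Msr1*, a scavenger receptor of macrophages, was at 1.99 ± 0.292 and 4.49 ± 1.92 (n = 3 each; limma, adjusted p = 0.317). *Ctsl*, which encodes the protease cathepsin L that trims endosomal TLRs, was at 38.9, 38.4 and 33.3 scaled TPM in untreated and 11.7, 8.64 and 7.49 in LPS samples. Its log2 fold change of -1.9 (SE 0.29) had an adjusted p of 0.04 in limma and missed the fold limit. *Rab11a*, a GTPase of recycling endosomes that brings TLR4 to phagosomes, was at 79.7 ± 7.99 and 39.5 ± 9.58 (n = 3 each; log2 fold change -1.02, limma, adjusted p = 0.149).

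Of 26 adaptors and kinases listed, 15 were in the table. *Ticam1* (the gene of TRIF), *Irak1* and *Irak4* were among those not analysed here. Of the 15, 3 were called higher (*Map3k7*, *Tbk1* and *Ikbke*) and 0 lower. The median of the log2 fold changes was 1.3. *Ikbke* and *Tbk1* encode kinases that activate the interferon regulatory factors downstream of TRIF. *Ikbke* was at 18.3, 42.5 and 9.89 scaled TPM in untreated and at 159.0, 412.0 and 219.0 in LPS samples, a log2 fold change of 3.55 (SE 0.62, limma, adjusted p = 0.053). *Tbk1* was at 8.26, 4.37 and 6.78 in untreated and 46.6, 50.9 and 46.5 in LPS samples, a log2 fold change of 2.75 (SE 0.31, limma, adjusted p = 0.021). The adaptor *Myd88*, added here after its values had been seen because most TLRs signal through it, was at 56.3 ± 16.2 and 56.6 ± 8.62 scaled TPM (n = 3 each; limma, adjusted p = 0.964).

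Of the 16 inhibitors of TLR signalling in the table (20 were listed), 4 were called higher (*Irak3*, *Tollip*, *Tnfaip3* and *Zc3h12a*) and 0 lower. Their log2 fold changes had a median of 1.26. *Tnfaip3*, which encodes the ubiquitin-editing enzyme A20, was at 27.7, 9.49 and 7.81 scaled TPM in untreated and at 142.0, 194.0 and 153.0 in LPS samples (log2 fold change 3.56, SE 0.51, limma, adjusted p = 0.035). *Zc3h12a*, which encodes an RNase that degrades cytokine mRNA, was at 30.9 ± 14.0 and 243.0 ± 52.3 (n = 3 each; log2 fold change 3.04, SE 0.46, limma, adjusted p = 0.04). Of 31 target genes of NF-κB and TLRs listed, 25 were in the table, and *Tnf* was among those not analysed here. The 25 had the largest median of the lists, 2.5, with 14 called higher and 0 lower. The chemokine gene *Cxcl3* went from 8.99 ± 4.32 to 485.0 ± 248.0 scaled TPM (n = 3 each; log2 fold change 5.57, SE 0.54, limma, adjusted p = 0.014). *Il1a*, the gene of interleukin-1α, was at 0.147, 20.6 and 1.48 in untreated and 169.0, 129.0 and 144.0 in LPS samples (log2 fold change 5.23, SE 1.06, limma, adjusted p = 0.072). All of these lists stand beside the same background as the members, 1.69% of all genes called higher and 1.31% lower. Over the lists together, 21 genes were called higher, and 19 without both libraries numbered 2.

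Marker sums of other cells also differed between the groups. *Tlr2*, *Tlr1* and *Tlr6* are also expressed by macrophages and monocytes. On the deposited scale the marker sum of these cells was higher in every LPS sample (382.1, 428.2 and 288.7) than in any untreated one (214.7, 180.3 and 217.3). Scaling to the summed value of protein-coding genes multiplies untreated values by 1.033 to 1.355 and LPS values by 0.7057 to 0.9568. The separation of the sums thus depends on the scale. Marker sums and the overlap of single markers were not compared after that scaling. Of the 17 markers, 1 was called higher, *C1qb*, at 2.77 ± 2.02 and 19.8 ± 3.63 scaled TPM (n = 3 each; log2 fold change 2.62, limma, adjusted p = 0.064), and 0 were called lower. Their median log2 fold change was 0.1. The mean of *C1qb* after LPS was 7.14 times that of untreated cells. *Cd68* and *Cd5l* were likewise higher in every LPS sample than in any untreated one, at 1.84 and 3.5 times. *Mrc1*, *Cx3cr1* and *Ccr2* went the other way without overlap, at 0.451, 0.308 and 0.218 times. For the remaining markers of this list the groups overlapped. Of all genes, 13.1% were apart upward and 9.75% downward. The 8 dendritic cell markers summed to 32.41, 4.368 and 11.07 in untreated and to 108.7, 35.98 and 130.0 in LPS samples. This was again without overlap on the deposited scale, and 0 of them were called. In the LPS samples most of this sum was *Ccr7*, a chemokine receptor of mature dendritic cells. *Ccr7* was at 11.1 ± 13.9 scaled TPM in untreated and 87.5 ± 48.0 in LPS samples (n = 3 each; log2 fold change 3.33, limma, adjusted p = 0.142). The median log2 fold change of the 8 markers was 0.18. At low levels, *Clec9a* was higher in every LPS sample (means 0.0284 and 0.397) and *Siglech* lower (0.104 and 0.0113). For the remaining dendritic cell markers the groups overlapped. The part of these cells in the values of the receptors was not tested.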

How the data were processed

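The authors aligned reads of 3 untreated and 3 LPS-treated samples to GRCm39 with STAR and quantified them with Kallisto (the submitters' processing notes also name fastp and mm10). The annotation release is not given in the sources used here. The deposited values were read as TPM that the authors averaged per gene and rescaled with 1 factor per sample. In the third untreated sample, 2899 of 5625 values checked had at most 6 digits, and 1148 more did after multiplication by a whole number. For 556 of the 1148 this number had a factor other than 2 and 5, and the remaining values fitted neither pattern. The check took only rows written with over 7 digits. All 10 members were in rows with at most 7 digits, so it did not cover them. The worth of 1 fragment came from genes with 1 transcript over 1000 bases in GENCODE M39, where 70.2% to 74.2% of values between 1 and 4 steps lay within 0.1 of a whole number of steps. Since the values are not counts, the count models that the methods of the study name were replaced by limma 3.58.1 (R 4.3.3, trended eBayes, two-sided) on log2(value + 1).

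The members and the gene lists were chosen with earlier results of these data known. Named are all 10 members, per pathway list and direction the 2 called genes of largest change (the 2 smallest p where none was called), the 3 genes most like *Tlr2*, *Tlr4* and *Ly96*, *Cgas*, and among the top 3 markers of each list those that led it. *Fam114a1*, *Myd88*, *Cd5l*, *Mrc1*, *Cx3cr1*, *Ccr2*, *Clec9a*, *Siglech* and the members of lists given by name alone were named after their values were seen. Differences of 5 pairs within samples were compared by exact permutation over 20 splits, two-sided. Groups came from the sample titles. Alternatives were other pseudocounts, filters, scalings and limits, no variance trend, a block on the replicate number and leaving out samples. Sequences were compared with blastn 2.17.0. Other software was scipy 1.17.1, pandas 2.3.3 and matplotlib 3.10.9 in Python 3.11.15.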

Additional observations from a re-analysis of the deposited data

How the results depend on the processing

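The members called higher numbered 3 under 10 of the 19 alternatives, 2 under 5 and 1 under 4. They fell to 1 at an adjusted p under 0.05 with no fold limit (*Tlr6*) and without both libraries numbered 2 (*Tlr6*), and they ranged from 1 to 3 when 1 sample was left out, with 1 without the first LPS and 1 without the third untreated sample (*Tlr2* in both). Under each of these alternatives 0 members were called lower by limma. Over all genes, calls higher came to 856 with a pseudocount of 0.1, 129 with a pseudocount of 5, 221 after scaling to the sum of protein-coding genes, 206 at an adjusted p under 0.05 and 834 with a log2 fold limit of 1, and calls lower to 493, 168, 516 and 673 with the same pseudocounts, scaling and fold limit and to 495 after centring, against 389 and 301. Pathway genes called higher came to 13 after that scaling and 13 at an adjusted p under 0.05, against 21, and those called lower to 1 after centring, 1 with a pseudocount of 0.1, 1 after scaling, 1 at an adjusted p under 0.05 and 2 with a log2 fold limit of 1, against 0, and they ranged from 0 to 1 when 1 sample was left out. The difference of *Tlr1* and *Tlr2* reversed to -0.22 with a pseudocount of 5 and ranged from -0.26 (without the third untreated sample) to 1.38 when 1 sample was left out. The cause was not tested for any of these. The share of the summed values from protein-coding genes was 21.6% to 29.0% in untreated and 50.6% to 60.0% in LPS samples, and centring moved the median log2 fold change of all genes to -0.31 and a pseudocount of 0.1 to 0.15.

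With the replicate number as a block, 3 members were called higher and 0 lower, as without it, 387 and 303 of all genes and 22 pathway genes higher. The adjusted p of *Tlr1*, *Tlr2* and *Tlr6* became 0.125, 0.082 and 0.104 with the block. Deviations of samples with the same number correlated at 0.102, 0.22 and 0.0925 over the 9403 genes with a mean of at least 1. Every sample correlated best with its own number, which is a hint from the data and not from the design, and not all of the correlations passed 0.1, so the numbers were not taken to pair the samples. Adjusted p ranged over the alternatives from 0.029 to 0.239 for *Tlr1*, from 0.02 to 0.204 for *Tlr2* and from 0.016 to 0.182 for *Tlr6*. Depth limits *Tlr3*, *Tlr12* and *Lbp*, which stand on a few fragments. Raising values under 3 fragments to that floor and leaving out both libraries numbered 2 were chosen after seeing the data.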
